A study of Homo sapiens with 9 samples.

Results

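GATA2 overexpression was compared with control within CD90+ blood-forming cells. Both groups were grown from H1, a human embryonic stem cell line of long standing, that had been differentiated in culture, and both carried CD90, the surface antigen encoded by THY1. The 3 libraries of the genotype GATA2 overexpression and the 3 of the genotype control were taken by their labels, which makes 6 of the 9 libraries of the series. The other 3 libraries are control cells positive for CD38, and their levels are given where they help to place a gene. The sources used here do not give how GATA2 was added, which promoter drove it, at what stage, or whether the line was 1 clone. All genes of the count table entered the comparison.

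GATA2 is a zinc finger transcription factor that binds GATA sequences in DNA. It is needed for blood stem cells to arise from endothelium and to be maintained, and it is used again in mast cells, basophils, eosinophils and early megakaryocytes. Its relative GATA1 drives the maturation of red cells, platelets and mast cells, partly at sites where it takes the place of GATA2, while the ETS factor PU.1, encoded by SPI1, favours macrophages and granulocytes.

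Counts assigned to genes totalled 37500192 to 39582736 per GATA2 overexpression library and 42577569 to 47261093 per CD90+ control library. Levels are given in the unit CPM, a gene's counts scaled by library size and by TMM factors, which adjust for differences in RNA composition. The count table holds 21229 genes, and 16232 of them had enough counts to be tested, and a gene was called where edgeR's quasi-likelihood test gave a Benjamini-Hochberg adjusted p under 0.05. Errors of log2 fold changes are standard errors (SE). The labels do not state if a group's 3 libraries are separate cultures. The p-values speak of the spread among these libraries, which may be technical, and the genotype and the culture cannot be told apart. In bulk RNA, fewer cells of a type and less RNA per cell cannot be told apart either.

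The level of GATA2 followed the labels. GATA2 (ENSG00000179348.11) lies on the minus strand of chromosome 3 at 128479427 to 128493185 (GRCh38) and was at 363, 388 and 377 CPM in the GATA2 overexpression libraries and at 86.6, 89.5 and 85.9 CPM in the controls. The groups did not overlap, and the log2 fold change was 2.11 (SE 0.03, adjusted p = 1.34e-18). Counts per symbol do not separate an added copy from the endogenous gene. The mean in CD38+ control cells was higher than in either, at 569 CPM.

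CD34 (ENSG00000174059.16, chromosome 1, 207880972 to 207911402) encodes a surface antigen of blood progenitors and endothelium. It was at 390, 385 and 391 CPM against 122, 123 and 123 CPM. All 3 overexpression libraries were high, and the log2 fold change was 1.67 (SE 0.03, adjusted p = 1.69e-17). SPN, which encodes the early leukocyte antigen CD43, was at 193, 191 and 194 CPM against 52.4, 52.0 and 53.1 CPM (log2 fold change 1.88, SE 0.03). The sorted antigen itself was low in all 6 libraries, with THY1 at 3.56, 2.81 and 2.80 CPM against 5.09, 3.83 and 4.37 CPM, and its groups barely separated. That fall (log2 fold change -0.53, SE 0.18, adjusted p = 0.0149) was not called without control replicate 1 (adjusted p = 0.0800) or without overexpression replicate 2 (0.0544). THY1 had 0 CPM in the CD38+ libraries. CD38, an ectoenzyme of committed progenitors, was at 2.76, 2.17 and 1.74 CPM against 4.22, 4.81 and 4.09 CPM, and its CD38+ mean was 122 CPM. PTPRC, the pan-leukocyte antigen CD45, fell, with 41.3, 36.8 and 31.1 CPM against 130, 114 and 109 CPM (log2 fold change -1.69, SE 0.09). KIT, the stem cell factor receptor, was at 57.0, 53.1 and 59.3 CPM against 49.0, 49.5 and 51.5 CPM (log2 fold change 0.18, adjusted p = 0.00242), but its log2 fold change was -0.07 when counts were scaled by library size only.

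**Figure D1:**
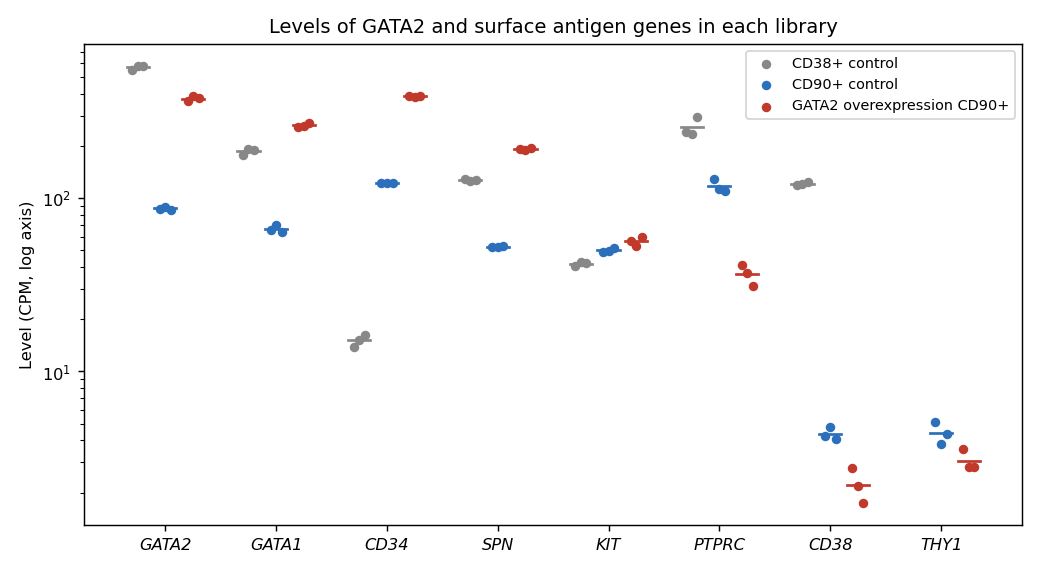
Level of 8 genes in each of the 9 libraries (log axis, CPM), with CD38+ control in grey, CD90+ control in blue and GATA2 overexpression CD90+ in red. Points are libraries and bars are means of 3. GATA2 stood at 363 to 388 CPM with overexpression against 85.9 to 89.5 CPM in CD90+ control cells, CD34, SPN and GATA1 were higher in the same libraries, and PTPRC and CD38 were lower.

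Most genes passed the test, so counts within gene lists have to be read against that background. Calls were made for 77.6% of the 16232 tested genes. With GATA2 overexpression 38% were higher and 39.6% lower, and the median log2 fold change was -0.04. The libraries of the groups did not overlap for 80.4% of genes. A stricter call, which also asks for a change of at least 2-fold, held for 29.4% of genes, 7.98% higher and 21.4% lower. The falls were also the larger changes, since 539 called genes were at least 10-fold lower and 28 at least 10-fold higher. Among genes at or above 5 CPM the median was 0.17. With library size only, all log2 fold changes moved by about -0.25 and 35.5% of calls were rises, where TMM factors gave 49.0%. That scaling also turned the sign of the medians of 6 of the 44 gene lists, which became -0.05 for CDK inhibitors and cyclins, -0.15 for fetal regulators, -0.12 for heme and iron genes, -0.04 for the MYC network, -0.07 for progenitor surface antigens and -0.25 for red cell membrane genes.

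Of 8 GATA factors and their FOG partners, 3 rose and 2 fell. GATA1 (ENSG00000102145.13, chromosome X, 48786554 to 48794311), the erythroid, megakaryocyte and mast cell factor, was at 258, 262 and 272 CPM against 65.7, 70.3 and 63.9 CPM. This was a rise of 1.98 on the log2 scale (SE 0.04, adjusted p = 3.04e-17), close in size to that of GATA2 itself, and the groups did not overlap. ZFPM2, which encodes the cofactor FOG2, rose from 15.1 to 30.4 CPM (log2 fold change 1.0). ZFPM1, which encodes FOG1, the partner of GATA1, was at 2.79, 2.68 and 2.72 CPM against 2.22, 2.97 and 3.22 CPM, and its groups overlapped (log2 fold change -0.04, adjusted p = 0.847). The heart and endoderm factors GATA4 and GATA5 fell from 2.78 to 1.39 CPM and from 2.01 to 0.878 CPM, and GATA6 was not called (adjusted p = 0.606). GATA3, of T cells and trophoblast, was at 9.64, 9.54 and 9.40 CPM against 11.1, 10.1 and 11.6 CPM and was not called (adjusted p = 0.109), though it was called lower with library size only (adjusted p = 0.00146), upper-quartile or RLE factors, DESeq2 or a filter at 1 CPM.

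The other transcription factors of stem and progenitor cells moved upward as a list. Of 26 genes of the TAL1 complex, RUNX1 and stem cell regulators 23 rose and 1 fell, 13 of them at least 2-fold, with a median log2 fold change of 0.96 (0.71 with library size only, where 20 rose and 2 fell). ZBTB16, a zinc finger repressor of progenitors and innate lymphocytes, was at 217, 206 and 219 CPM against 39.4, 40.5 and 39.1 CPM (log2 fold change 2.43, SE 0.04, adjusted p = 9.44e-19). NFE2, the platelet-forming factor, was at 642, 638 and 659 CPM against 184, 180 and 183 CPM (log2 fold change 1.82). MYB, which keeps definitive progenitors dividing, was at 239, 242 and 233 CPM against 70.2, 66.2 and 67.0 CPM, and GFI1B, a repressor needed for red cells and platelets, at 244, 227 and 234 CPM against 75.2, 76.2 and 76.1 CPM. In each of these 4 genes every overexpression library lay above every control.

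Within this list, partners of the same complex moved by different amounts. LYL1, a relative of TAL1, rose from 119 to 305 CPM and the ETS factor FLI1 from 113 to 227 CPM. TAL1 rose only from 37.1 to 43.7 CPM, a log2 fold change of 0.24 that is within the shift of the scaling, and LMO2, their bridging protein, was not called (113 and 110 CPM). Genes linked to long-term stem cell function were low but higher with GATA2 overexpression. HLF, a factor of the most immature stem cells, rose from 2.72 to 8.77 CPM, MECOM from 10.6 to 22.0 CPM, and MLLT3, which sustains stem cells in culture, from 23.1 to 84.8 CPM. PRDM16 was low and not called, at 0.723, 1.14 and 0.761 CPM against 1.14, 0.943 and 0.685 CPM. KLF1, the red cell master regulator, rose from 7.0 to 26.0 CPM. IKZF1, the lymphoid factor Ikaros, was the 1 gene that fell (log2 fold change -0.08, adjusted p = 0.0417), a call lost in 5 of the 6 fits that left out 1 library.

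**Figure D2:**
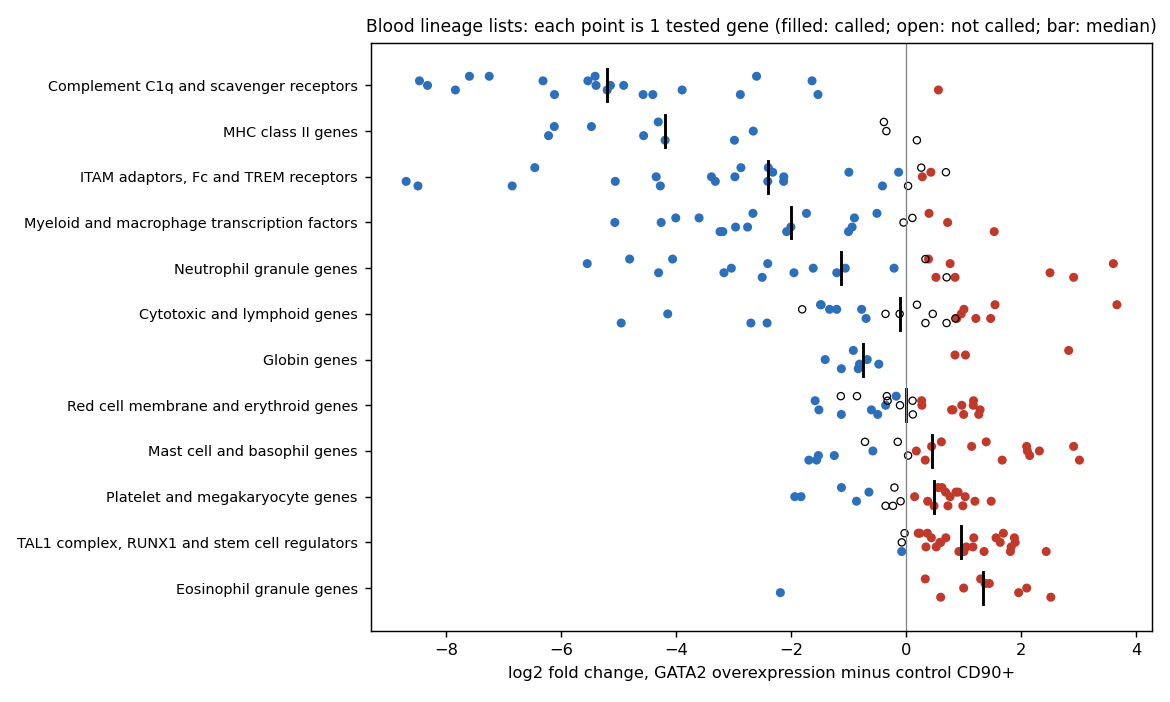
Log2 fold change of each tested gene in 12 lists of blood regulators and blood cell types, GATA2 overexpression minus control. Points are genes, filled where called and open where not, red for higher and blue for lower, and black bars are list medians, which run from -5.20 for complement C1q and scavenger receptors to 1.33 for eosinophil granule genes.

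Factors of the macrophage side fell. Of 21 myeloid and macrophage transcription factors 16 fell and 3 rose, 13 of the falls at least 2-fold, and the median log2 fold change was -2.01. IRF8, of monocytes and dendritic cells, was at 26.1, 23.3 and 23.5 CPM against 299, 297 and 291 CPM (log2 fold change -3.60), so the groups were far apart. MAF fell from 54.2 to 6.92 CPM, KLF4 from 108 to 17.0 CPM and IRF4 from 10.9 to 0.563 CPM. SPI1 was not called, with means of 175 CPM with GATA2 overexpression and 181 CPM in control (log2 fold change -0.05, adjusted p = 0.295). The granulocyte factors CEBPA and CEBPE rose, CEBPA with 64.5, 74.0 and 71.1 CPM against 41.1, 43.0 and 43.3 CPM and CEBPE from 3.71 to 10.7 CPM. CEBPB and CEBPD on the same list fell, from 131 to 70.1 CPM and from 228 to 68.5 CPM.

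The MYC network split by member. MYCN was at 244, 266 and 259 CPM against 77.4, 78.1 and 78.9 CPM (log2 fold change 1.71, SE 0.03), and MYC and their shared partner MAX rose from 76.8 to 171 CPM and from 198 to 432 CPM. The antagonist gene MXD1 and the relative MYCL fell, from 52.0 to 18.4 CPM and from 22.4 to 8.57 CPM, while MXD3, another antagonist, rose from 20.4 to 40.8 CPM. In all 7 of 13 members rose and 5 fell, with a median of 0.21 that became -0.04 with library size only.

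Surface antigens of progenitors did not move as a group. Of 33 tested 17 rose and 15 fell, with a median log2 fold change of 0.18 (-0.07 with library size only). Those that rose besides CD34 and SPN included ESAM, an adhesion molecule of stem cells and endothelium, at 299, 293 and 293 CPM against 109, 111 and 109 CPM (log2 fold change 1.43), the sialomucin CD164, from 712 to 1431 CPM, PROCR, the endothelial protein C receptor of stem cells, from 9.15 to 18.7 CPM, and ANGPT1, the ligand of the receptor TEK, from 71.0 to 211 CPM. The homing receptor CXCR4 fell, with 13.7, 14.8 and 13.9 CPM against 65.7, 60.2 and 62.7 CPM (log2 fold change -2.15, SE 0.04). PROM1, which encodes CD133, fell from 5.61 to 3.65 CPM and FLT3 from 2.97 to 1.65 CPM.

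Receptors for blood cytokines mostly fell. Of 34 cytokine receptor and SOCS inhibitor genes 22 fell and 7 rose, 17 of the falls at least 2-fold, with a median log2 fold change of -1.01. IL5RA, the eosinophil receptor for IL-5, rose from 9.09 to 22.3 CPM. CSF1R, the macrophage growth factor receptor, was at 236, 216 and 231 CPM against 1066, 1055 and 1083 CPM (log2 fold change -2.23). IL10RA fell from 183 to 7.98 CPM, IFNGR1 from 422 to 114 CPM, and SOCS3, a feedback inhibitor of STAT3, from 170 to 24.1 CPM. The erythropoietin receptor EPOR fell from 24.7 to 21.9 CPM, a log2 fold change of -0.18. SOCS2 rose from 24.0 to 30.0 CPM.

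Counting called genes of at least 5 CPM in the higher group and separate values in the 2 groups, the 10 largest rises were CGB8, CGB5, CGA, NCR2, PRTN3, TTLL10, RILP, FCER1A, MS4A3 and ALDH1A1. MS4A3, a membrane protein of granulocyte and monocyte progenitors, was at 198, 192 and 182 CPM against 26.0, 23.5 and 23.4 CPM (log2 fold change 2.97, SE 0.04). FCER1A, the IgE-binding chain of the mast cell and basophil receptor, was at 21.1, 18.5 and 20.6 CPM against 2.42, 3.05 and 1.97 CPM (log2 fold change 3.01, SE 0.18, adjusted p = 1.00e-10). ALDH1A1, which makes retinoic acid from retinaldehyde, was at 51.6, 44.5 and 44.1 CPM against 6.66, 6.06 and 5.44 CPM (log2 fold change 2.95). NCR2, the receptor NKp44 of activated natural killer cells, was at 131, 131 and 136 CPM against 9.31, 11 and 11.1 CPM (log2 fold change 3.66). In each of these genes the 3 overexpression libraries were close together and several times the highest control. PRTN3, the serine protease proteinase 3 of neutrophil granules, varied most, with 67.6, 41.4 and 83.3 CPM against 5.62, 5.13 and 5.09 CPM (log2 fold change 3.60, SE 0.36), and still did not overlap.

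Granule genes of basophils, mast cells and eosinophils were mostly higher. Of 21 tested mast cell and basophil genes 13 were higher and 5 lower, 9 of the rises at least 2-fold, with a median log2 fold change of 0.44. GATA2 and KIT are on this list, so they are not separate from the results above. CPA3, the mast cell carboxypeptidase, was at 25.9, 22.3 and 26.8 CPM against 4.77, 5.41 and 4.87 CPM (log2 fold change 2.32), and CTSG, the protease cathepsin G, at 87.9, 83.7 and 85.5 CPM against 11.9, 11 and 11.3 CPM (log2 fold change 2.91). SLC18A2, which loads histamine into granules, rose from 4.56 to 20.2 CPM. ALOX5AP and HPGDS, of leukotriene and prostaglandin synthesis, fell from 75.3 to 26.1 CPM and from 15.9 to 5.38 CPM. The levels stayed under those of CD38+ control cells for CPA3 and SLC18A2 (78.3 and 127 CPM).

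Of 10 eosinophil granule genes 9 rose and 1 fell, with a median of 1.33 (1.08 with library size only, where 8 rose). PRG3, a homologue of major basic protein, was at 308, 277 and 278 CPM against 73.8, 74.4 and 74.7 CPM, and CLC, the Charcot-Leyden crystal protein, at 363, 313 and 306 CPM against 75.2, 78.9 and 75.7 CPM. EPX, eosinophil peroxidase, rose from 48.4 to 125 CPM. CCR3, the eotaxin receptor, was the 1 member that fell, from 4.57 to 1.0 CPM.

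Neutrophil granule genes went both ways. Of 22 tested 13 fell and 7 rose, with a median log2 fold change of -1.13. Those that rose were MPO, PRTN3, CTSG, DEFA4, CSF3R, LCN2 and OLFM4. Granule type did not separate the directions, since BPI, DEFA1 and DEFA3, which like MPO are known from azurophil granules, fell, BPI from 9.0 to 3.89 CPM. MPO, myeloperoxidase, was at 1846, 1664 and 1728 CPM against 966, 981 and 963 CPM (log2 fold change 0.85). ELANE, neutrophil elastase, with means of 0.292 CPM against 0.231 CPM, and AZU1, with 27.9, 16.5 and 13.9 CPM against 3.81, 28.6 and 3.24 CPM, were not called. MMP9, gelatinase B, fell, with 4.0, 4.05 and 4.16 CPM against 113, 117 and 112 CPM (log2 fold change -4.81), as did S100A8 from 220 to 38.8 CPM, S100A9 from 327 to 84.3 CPM and lactoferrin, LTF, from 2.01 to 0.221 CPM. LCN2, lipocalin 2, rose from 4.47 to 6.39 CPM.

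The sequence AGATAA or TGATAA, searched on both strands as a plain form of the site that GATA factors bind, was looked for in RefSeq promoters (GRCh38.p14, from 250 bases before to 50 after the start). It was found in 4 of the 10 promoters of the largest rises and in 0 of the 8 of the largest falls that had a promoter in the table. Over many genes the order was not the same. The motif was in 9.86% of all 12258 promoters of tested genes, in 9.99% of 941 promoters of genes called at least 2-fold higher, in 13.7% of 2404 of genes called at least 2-fold lower, and in 10.5% of 2604 of genes not called. For AGATAA alone the shares were 6.25%, 6.06%, 8.69% and 7.03%. A match is a description of the letters and not a binding site.

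The 250 bases before the start are shown for the 4 largest rises that hold the motif, for HBD and CPA3 as a globin and a granule gene that rose, and for IL7R and IL10RA as receptor genes that fell, in lower case with the motif in capitals (TTATCT is AGATAA read from the other strand). The motif begins at -156 from the start in CGA, -122 in FCER1A, -55 in MS4A3, -34 in ALDH1A1, -78 in HBD, -173 and -45 in CPA3, -36 in IL7R and -164 in IL10RA.
CGA, chr6:87095107-87095356, minus strand: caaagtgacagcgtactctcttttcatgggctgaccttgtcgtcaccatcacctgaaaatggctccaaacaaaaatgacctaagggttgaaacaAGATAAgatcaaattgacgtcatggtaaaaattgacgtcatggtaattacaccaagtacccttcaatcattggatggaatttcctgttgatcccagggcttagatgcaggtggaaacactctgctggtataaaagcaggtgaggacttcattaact
FCER1A, chr1:159302086-159302335, plus strand: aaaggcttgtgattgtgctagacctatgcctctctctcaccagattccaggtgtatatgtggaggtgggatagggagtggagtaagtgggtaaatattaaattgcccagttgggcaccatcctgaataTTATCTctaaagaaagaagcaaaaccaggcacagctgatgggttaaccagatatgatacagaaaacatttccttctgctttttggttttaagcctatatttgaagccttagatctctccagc
MS4A3, chr11:60056415-60056664, plus strand: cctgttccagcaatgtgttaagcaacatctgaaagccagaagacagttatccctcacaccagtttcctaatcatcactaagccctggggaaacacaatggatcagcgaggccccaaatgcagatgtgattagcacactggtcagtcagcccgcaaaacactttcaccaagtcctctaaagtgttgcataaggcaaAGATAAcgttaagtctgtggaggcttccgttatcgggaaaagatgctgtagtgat
ALDH1A1, chr9:72953054-72953303, minus strand: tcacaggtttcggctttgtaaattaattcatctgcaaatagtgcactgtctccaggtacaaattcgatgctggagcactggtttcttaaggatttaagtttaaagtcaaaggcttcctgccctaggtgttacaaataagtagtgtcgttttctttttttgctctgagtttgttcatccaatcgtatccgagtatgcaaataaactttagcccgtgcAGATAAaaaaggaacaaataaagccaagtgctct
HBD, chr11:5234484-5234733, minus strand: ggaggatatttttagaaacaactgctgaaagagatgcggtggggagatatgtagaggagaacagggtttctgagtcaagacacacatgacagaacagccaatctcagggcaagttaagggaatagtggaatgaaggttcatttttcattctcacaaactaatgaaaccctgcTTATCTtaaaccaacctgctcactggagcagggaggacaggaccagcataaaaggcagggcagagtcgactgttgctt
CPA3, chr3:148865046-148865295, plus strand: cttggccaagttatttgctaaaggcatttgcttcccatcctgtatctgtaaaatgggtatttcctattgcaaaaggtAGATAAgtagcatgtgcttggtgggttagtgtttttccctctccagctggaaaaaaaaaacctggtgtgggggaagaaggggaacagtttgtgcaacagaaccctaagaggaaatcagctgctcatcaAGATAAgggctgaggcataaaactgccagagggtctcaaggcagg
IL7R, chr5:35856641-35856890, plus strand: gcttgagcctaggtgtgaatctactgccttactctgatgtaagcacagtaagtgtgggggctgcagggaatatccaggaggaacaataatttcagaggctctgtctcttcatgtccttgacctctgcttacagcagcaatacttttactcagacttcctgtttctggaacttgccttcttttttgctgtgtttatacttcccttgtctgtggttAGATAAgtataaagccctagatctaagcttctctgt
IL10RA, chr11:117989695-117989944, plus strand: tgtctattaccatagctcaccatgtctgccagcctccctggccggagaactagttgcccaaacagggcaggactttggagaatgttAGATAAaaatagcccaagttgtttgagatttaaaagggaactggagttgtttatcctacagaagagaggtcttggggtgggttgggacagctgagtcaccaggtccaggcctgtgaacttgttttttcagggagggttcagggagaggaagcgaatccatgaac
Every promoter shown holds the motif, where 9.86% of all promoters of tested genes do. The display therefore cannot show how common the motif is among genes that rose or fell.

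HBD, the delta chain of adult haemoglobin, was among the 10 largest gains in CPM and rose while the embryonic globin of the same cluster fell. HBD (ENSG00000223609.9, chromosome 11, 5232678 to 5243657) was at 2301, 1890 and 1998 CPM against 294, 286 and 294 CPM (log2 fold change 2.82, SE 0.05, adjusted p = 2.82e-17). HBE1, embryonic epsilon globin, was at 332, 272 and 270 CPM against 648, 633 and 629 CPM (log2 fold change -1.13, SE 0.05). The groups did not overlap for either. HBB, adult beta globin, rose but stayed low, from 0.779 to 1.6 CPM, and fetal HBG2 fell from 45.2 to 32.5 CPM. HBG1 was not tested, with means of 0.0700 CPM against 0.133 CPM. Of the 5 alpha-type genes HBZ, HBM, HBA1 and HBA2 fell and HBQ1 rose, HBZ from 26.5 to 14 CPM. Reads of HBG1 and HBG2, and of HBA1 and HBA2, can be shared between near-identical copies, so single values of these are uncertain. The HBD span given above also holds its RefSeq promoter, at 5234484 to 5234733 on the minus strand, so it reaches upstream of that start. Where within the span the HBD reads lie was not tested, so its level as delta globin is uncertain too. In all 3 of 10 tested globin-list genes rose and 7 fell.

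Several enzymes of heme synthesis rose, among them ALAD, UROS, UROD, CPOX, PPOX and FECH. ALAS2, the erythroid first enzyme, fell from 43.4 to 20.6 CPM, and ALAS1 was not called. UROD was at 373, 354 and 359 CPM against 182, 184 and 182 CPM (log2 fold change 0.99). The rise of ALAD was 0.19 on the log2 scale, under the shift of the scaling. Iron storage and heme breakdown went down, with FTL, ferritin light chain, at 3370, 3479 and 3535 CPM against 8718, 8461 and 8328 CPM (log2 fold change -1.30) and HMOX1, heme oxygenase, at 31.6, 31.1 and 27.3 CPM against 292, 288 and 288 CPM (log2 fold change -3.27). Over the whole heme and iron list 11 of 23 rose and 9 fell.

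Red cell membrane genes had no common direction, with 10 of 24 higher, 7 lower and a median of 0.00. Glycophorins GYPB, GYPC and GYPE and the Rh-associated RHAG rose, RHAG with 113, 104 and 105 CPM against 44.8, 45.8 and 43.9 CPM. The membrane genes ANK1 and SLC4A1 fell, ANK1 from 7.07 to 2.46 CPM. Of 23 platelet genes 14 rose and 5 fell, and the median was 0.48. ITGA2B, which encodes CD41, was at 693, 677 and 691 CPM against 339, 339 and 336 CPM (log2 fold change 1.02), GP9 rose from 129 to 296 CPM and the platelet chemokine PF4 from 1077 to 2012 CPM. F13A1 and THBS1 fell, from 49.5 to 12.9 CPM and from 183 to 83.7 CPM, and the platelet tubulin TUBB1 from 45.4 to 24.9 CPM.

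Lymphoid genes were few and split. Of 25 tested cytotoxic and lymphoid genes 7 rose and 10 fell. IL7R, the receptor of early lymphocytes, was at 0.982, 0.954 and 0.815 CPM against 30.3, 28.5 and 27.0 CPM (log2 fold change -4.96, SE 0.11). CD7 and CD79B rose, from 18.3 to 33.7 CPM and from 26.9 to 53.8 CPM. NKG7, a granule protein of cytotoxic cells, fell from 63.2 to 38.9 CPM, and PRF1 was not called.

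Among called genes at or above 5 CPM in the higher group with groups that did not overlap, the 10 largest falls were C1QC, C1QB, C1QA, TIMD4, SDS, CMKLR1, CD36, CCL22, SLCO2B1 and TLR7, most of which are known from tissue macrophages. Of 21 tested complement C1q and scavenger receptor genes 20 fell, each at least 2-fold, and 1 rose, with a median log2 fold change of -5.20. C1QC (chromosome 1, 22643630 to 22648110), a chain of the first complement component, was at 0.232, 0.503 and 0.435 CPM against 144, 135 and 136 CPM (log2 fold change -8.46, SE 0.10, adjusted p = 4.80e-20). CD36, a lipid scavenger receptor, was at 0.878, 1.06 and 1.17 CPM against 161, 155 and 158 CPM. MRC1, the mannose receptor, fell from 113 to 2.64 CPM, CD163, the haemoglobin scavenger, from 51.0 to 1.44 CPM, and LYVE1 from 75.4 to 5.05 CPM. SCARB1, the receptor for high-density lipoprotein, rose with 217, 218 and 212 CPM against 145, 147 and 148 CPM. CD68 had 2 counts against 28 and could not be tested.

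The list of ITAM adaptors, Fc and TREM receptors mostly fell, while the adaptor genes TYROBP and FCER1G hardly moved. Of 24 tested 19 fell and 2 rose, with a median of -2.40. TYROBP, the adaptor DAP12, fell by 0.13 on the log2 scale, from 371 to 338 CPM, and FCER1G, the shared Fc receptor chain, was not called, at 318 and 325 CPM. CLEC7A, the beta-glucan receptor Dectin-1, was at 1.03, 0.742 and 0.571 CPM against 71.2, 66.1 and 70.9 CPM (log2 fold change -6.46). TREM2 fell from 55.4 to 7.03 CPM and FCGR3A from 14.6 to 0.124 CPM. LILRB4 and LILRB5, inhibitory receptors of myeloid cells, had 0 counts with GATA2 overexpression and were at least 40.0-fold and 45.1-fold lower, taking 3 counts over the group as the floor. Reads of the FCGR and LILR families can be shared between similar copies.

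Class II antigen presentation fell with them. Of 11 tested MHC class II genes 8 fell and 0 rose, each fall at least 2-fold. CD74, the invariant chain, was at 121, 114 and 118 CPM against 934, 939 and 928 CPM, HLA-DRA at 1.5, 1.09 and 1.01 CPM against 57.8, 52.3 and 50.4 CPM, and CIITA, their master regulator, fell from 7.38 to 0.307 CPM. Of 31 lysosomal genes 20 fell and 8 rose. LGMN, the protease legumain, was at 41.6, 42.6 and 43.4 CPM against 806, 798 and 796 CPM (log2 fold change -4.23), whereas cathepsin genes CTSK and CTSS rose, from 21.4 to 54.5 CPM and from 256 to 393 CPM. Of 17 lipid handling genes 12 fell and 2 rose. ABCA1, the cholesterol exporter, fell from 30.1 to 4.10 CPM and LPL, lipoprotein lipase, from 22.9 to 1.04 CPM, and FABP4, with 0 counts, was at least 48.5-fold lower. The 2 that rose were NR1H3 and PLTP, by 0.40 and 0.17 on the log2 scale, and with library size only neither was called.

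Of 33 chemokine and chemokine receptor genes 26 fell and 4 rose, and the median log2 fold change was -3.25. CX3CR1, the fractalkine receptor, was at 5.76, 5.43 and 4.95 CPM against 105, 101 and 106 CPM, CCR7 fell from 68.4 to 4.29 CPM and CXCL10 from 22.9 to 0.547 CPM. CXCL2 and CXCL3, which attract neutrophils, rose, CXCL2 with 141, 137 and 141 CPM against 92.2, 91.3 and 88.9 CPM, while CXCL8 of the same family fell from 175 to 122 CPM. CCL13 had 7 counts against 1, a ratio of 9.62 with a 95% counting interval of 1.24 to 434.

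Interferon-stimulated genes separated into 25 that fell and 6 that rose, with none uncalled, and a median of -1.49. IFIT3, which limits viral RNA translation, was at 18.9, 17.6 and 17.8 CPM against 98.7, 98.2 and 98.1 CPM, and OASL fell from 41.4 to 4.42 CPM. The 6 that rose were IFI6, IFITM1, IFITM2, IFITM3, ISG15 and BST2, singled out after their values were seen. IFITM2, a membrane protein that blocks virus entry, was at 1186, 1135 and 1163 CPM against 404, 395 and 399 CPM (log2 fold change 1.54, SE 0.03), and IFI6 at 433, 437 and 435 CPM against 144, 140 and 142 CPM. BST2 rose by 0.24, within the shift of the scaling. IFITM genes are close copies, so their split of reads is uncertain. The summed level of the 6 that rose, 3680 CPM against 1584 CPM, made the list's total higher in overexpression libraries although most members were lower.

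**Figure D3:**
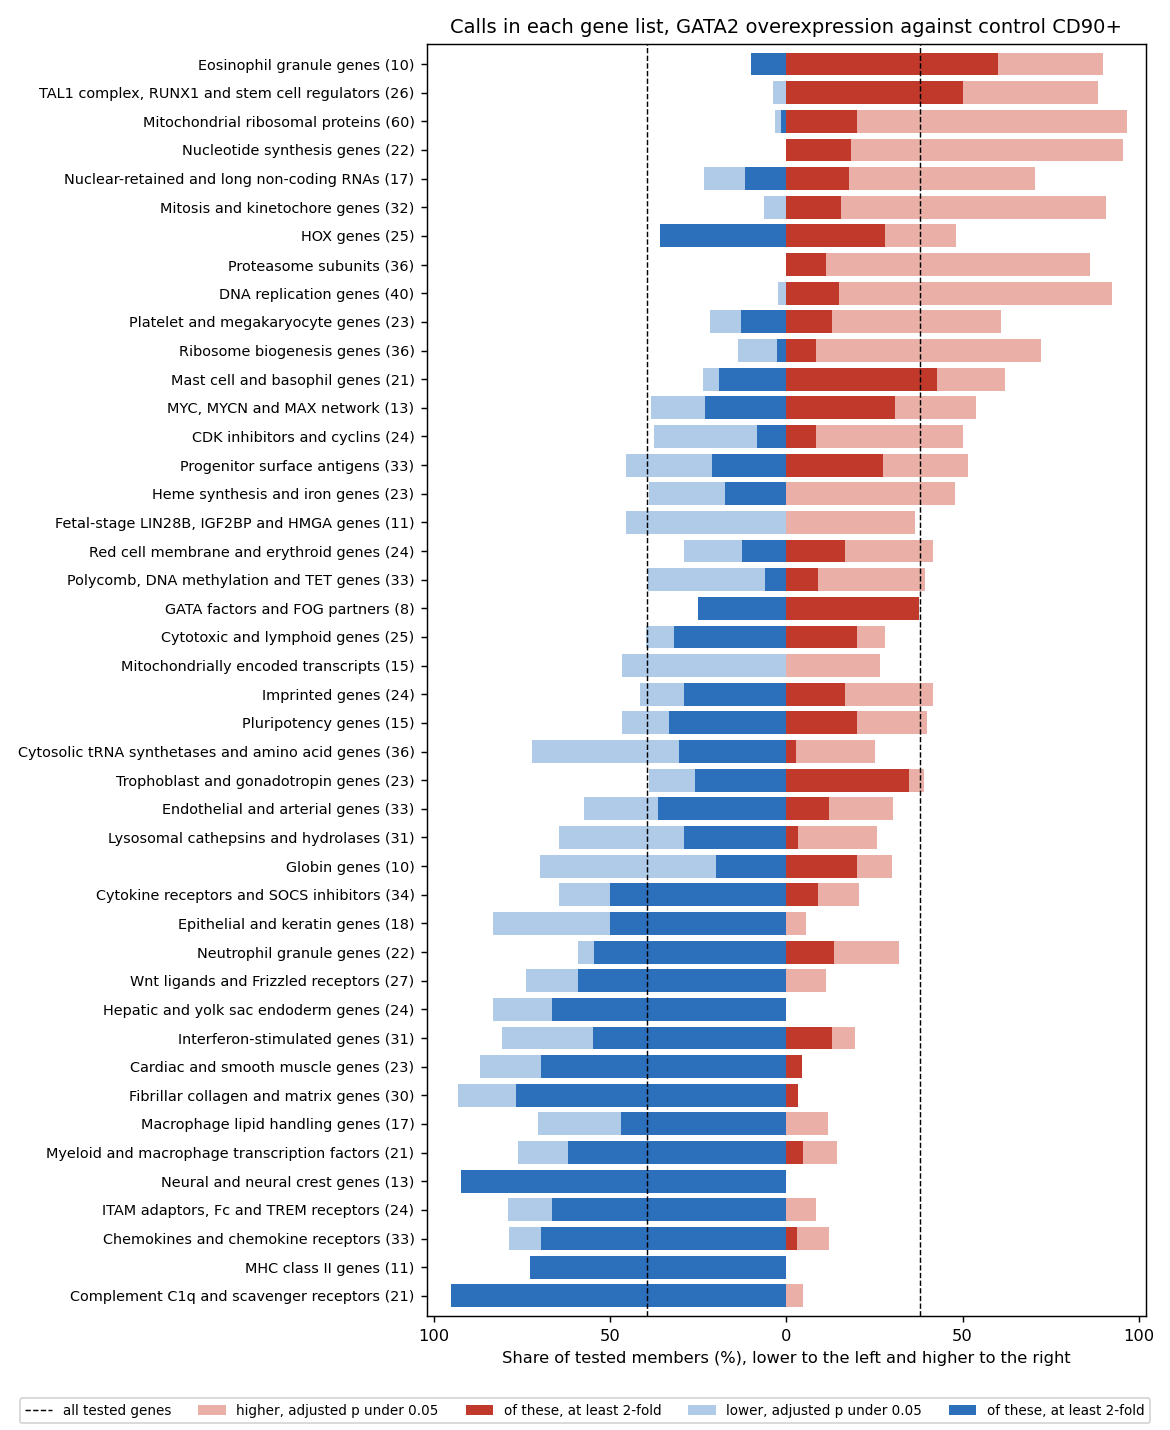
Share of tested members called higher (right, red) and lower (left, blue) in each of 44 gene lists, with the number tested in brackets and the darker part at least 2-fold. Dashed lines mark the shares over all tested genes, 38% higher and 39.6% lower, and lists are ordered by median log2 fold change, from eosinophil granule genes at the top to complement C1q and scavenger receptors at the bottom.

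The same libraries differed in markers of other cells that a CD90+ gate can hold. The summed level of the C1q and scavenger list was 272 to 284 CPM with GATA2 overexpression against 1597 to 1625 CPM in control libraries. Without SCARB1, its 1 member that rose, the sums were 56.7 to 66.3 CPM against 1450 to 1480 CPM, 24-fold lower where the full list was 5.81-fold lower. The summed level of fibrillar collagen and matrix genes was 974 to 988 CPM against 2303 to 2327 CPM. Cardiac and smooth muscle genes summed to 161 to 166 CPM against 244 to 246 CPM, hepatic and yolk sac endoderm genes to 137 to 150 CPM against 370 to 372 CPM, epithelial genes to 676 to 684 CPM against 965 to 979 CPM and neural genes to 12 to 13.6 CPM against 46.7 to 50.02 CPM. Endothelial genes summed to 1759 to 1773 CPM against 1514 to 1537 CPM, although 19 of 33 tested fell and 10 rose. Of these sums only that of the C1q list was also taken without a member that rose. Of the defining markers listed, SOX1 and POU5F1 had 0 counts with GATA2 overexpression, and SOX1 had only 4 in control. ALB had 13 counts against 46 and CD68 had 2 against 28, while COL3A1, C1QA, TTR and EPCAM were detected in all 6 libraries. The part of these shifts in the other results was not tested.

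Of 30 matrix genes 28 fell and 1 rose, and the median was -1.64. COL3A1, a fibrillar collagen of connective tissue, was at 80.1, 80.3 and 79.7 CPM against 403, 397 and 397 CPM, LUM fell from 254 to 84.1 CPM, DCN from 86.1 to 28.7 CPM and PDGFRA from 5.73 to 0.761 CPM. SPARC fell only from 548 to 435 CPM, and LOX, the collagen cross-linking enzyme, rose from 29.5 to 84.5 CPM. Of 23 cardiac genes 20 fell. MYL7, atrial myosin light chain, was at 7.49, 6.84 and 5.93 CPM against 27.3, 28.4 and 28.7 CPM, and the 1 that rose was MYL4, the embryonic and atrial light chain, with 71.6, 73.9 and 77.0 CPM against 28.4, 28.4 and 27.2 CPM. Of 24 hepatic and yolk sac genes 20 fell and 0 rose, with AFP from 39.8 to 10.1 CPM and FGB from 54.2 to 9.73 CPM. Of 18 epithelial genes 15 fell, with CDH1, E-cadherin, at 2.43, 3.07 and 2.31 CPM against 17.9, 17.2 and 17.3 CPM, while KRT18 rose from 315 to 394 CPM. Of 13 neural genes 12 fell, with PAX6 from 7.17 to 1.69 CPM. Of 27 Wnt ligands and receptors 20 fell. Those that rose were FZD6, LRP5 and RYK, of which FZD6 and LRP5 had log2 fold changes of -0.0057 and -0.01 with library size only. With library size only, and with upper-quartile factors, 0 members of this list were called higher, so RYK was not called either.

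Endothelial genes went both ways. Of 33 tested 10 rose and 19 fell, with a median of -0.66. The junction and Tie family genes PECAM1 (178 to 260 CPM), TIE1 (82.5 to 152 CPM) and ESAM rose together with ERG, an ETS factor shared by endothelium and stem cells, which was at 92.7, 81.7 and 82.8 CPM against 28.3, 30.3 and 28.5 CPM (log2 fold change 1.56). The VEGF receptor KDR fell from 55.0 to 29.3 CPM. Several arterial and Notch genes fell, with JAG1, a Notch ligand, at 4.93, 4.90 and 4.48 CPM against 18.7, 19.8 and 18.3 CPM, DLL4 from 7.66 to 1.51 CPM, EFNB2 from 24.5 to 7.89 CPM and NOTCH1 from 31.0 to 16.9 CPM. GJA4, the arterial connexin 37, rose from 16.9 to 40.6 CPM.

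The 3 largest rises among called genes at or above 5 CPM were subunits of gonadotropin hormones, which in people are made by the pituitary and the placenta. CGA (ENSG00000135346.8, chromosome 6, 87085498 to 87095406), the alpha chain shared by chorionic gonadotropin and pituitary hormones, was at 110, 90.2 and 91.9 CPM against 2.89, 2.67 and 2.44 CPM (log2 fold change 5.19, SE 0.10, adjusted p = 2.46e-17). CGB8 and CGB5, of the chorionic beta chain cluster on chromosome 19, were at 8.91, 10.01 and 9.32 CPM against 0.0786, 0 and 0.0805 CPM and at 13, 14.3 and 12.4 CPM against 0.118, 0.163 and 0.0201 CPM. CGB7 rose from 0.139 to 1.87 CPM. Reads of the CGB copies can be shared, so the split between them is uncertain, but LHB, the pituitary copy of the same cluster, had 1 count against 17. ERVW-1, which encodes the fusion protein syncytin-1, rose from 0.117 to 1.42 CPM, and INSL4, a placental relaxin-like gene, had 70 counts against 0, at least 32.1-fold higher.

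General trophoblast markers did not follow. TFAP2C, a trophoblast and amnion factor, fell from 3.23 to 0.705 CPM, TFAP2A from 2.12 to 1.35 CPM, KRT7 from 1.78 to 0.990 CPM and VGLL1 from 0.629 to 0.195 CPM, GATA3 was not called, and GCM1, the master factor of the hormone-making syncytium, had 2 counts against 11. CYP19A1, placental aromatase, fell from 6.03 to 0.784 CPM. Placental lactogen genes CSH1 and CSH2 had 0 counts with GATA2 overexpression. Of 23 tested members of the trophoblast list 9 rose and 9 fell, and the median was -0.63. The list was long, at 46 symbols of which 40 were in the table, and 17 of those had too few counts to test.

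HOX genes, which mark position along the body axis and are carried into definitive blood cells, moved by cluster. Of 25 tested 12 rose and 9 fell. HOXA9 (chromosome 7, 27162435 to 27175180), a self-renewal factor of definitive progenitors, was at 15.7, 17.0 and 17.7 CPM against 3.34, 2.58 and 2.62 CPM (log2 fold change 2.56, SE 0.15, adjusted p = 1.03e-10), and HOXA10, which rose as did HOXA11 and HOXA13, at 3.36, 3.29 and 3.37 CPM against 1.04, 0.635 and 0.946 CPM. At the other end of the same cluster HOXA2 and HOXA3 fell, HOXA3 from 97 counts over the control group to 1, a ratio of 70.5 with a 95% counting interval of 12.4 to 2815. In the HOXB cluster all of HOXB2 to HOXB9 rose, HOXB4 with 5.30, 4.29 and 5.38 CPM against 2.73, 2.32 and 2.72 CPM and HOXB9 from 11.2 to 29.2 CPM, and HOXB1 fell from 0.967 to 0.0711 CPM.

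The HOXC and HOXD clusters, low in control cells, were lower still. HOXC6, HOXC8, HOXC9 and HOXC10 fell, HOXC10 with 0.155, 0.106 and 0.217 CPM against 2.63, 1.81 and 2.54 CPM, and HOXC4 was not called. In the HOXD cluster 5 of 7 genes had 0 counts in every overexpression library. Taking 3 counts over the group as the floor, HOXD9 was at least 36.1-fold lower and HOXD13 at least 17.5-fold lower. HOXD13 did not pass the filter on low counts, and its control libraries were uneven, at 0.491, 0.1995 and 0.725 CPM.

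**Figure D4:**
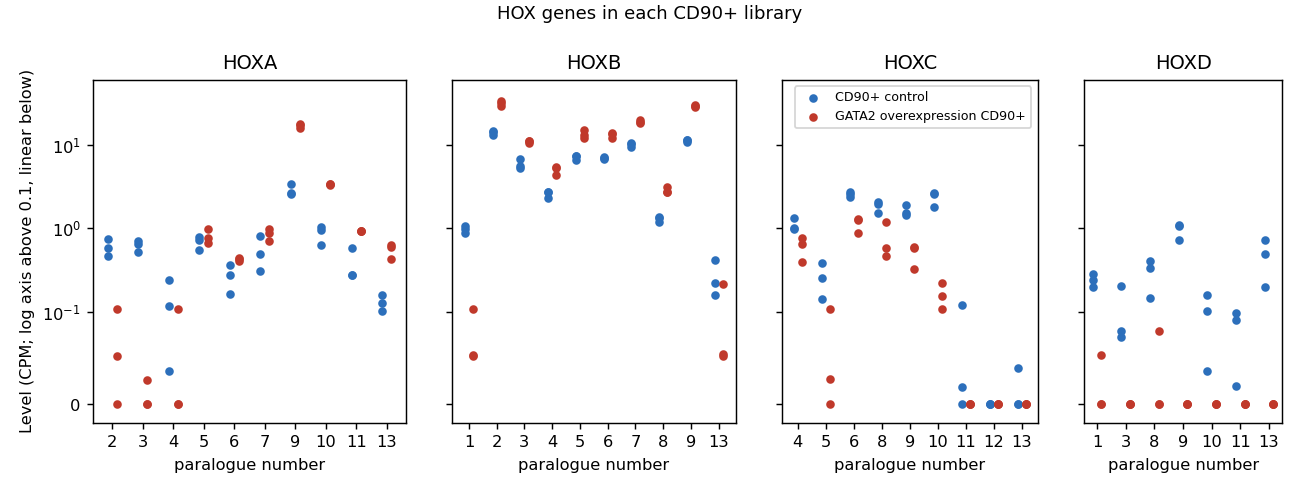
Level of HOX genes in each CD90+ library, by cluster and paralogue number (CPM, log axis above 0.1 and linear below), control in blue and GATA2 overexpression in red. Overexpression libraries lie above control for HOXA9, HOXA10 and HOXB2 to HOXB9 and below for HOXA2, HOXA3, HOXB1, HOXC6 to HOXC10 and the HOXD genes, 5 of which are at 0.

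Imprinted genes were even, 10 of 24 higher and 10 lower. MEST and DLK1, both expressed from the paternal copy in fetal tissue, rose from 341 to 773 CPM and from 274 to 560 CPM, whereas IGF2 was at 49.3, 45.3 and 45.5 CPM against 128, 126 and 130 CPM (log2 fold change -1.45). Regulators of fetal blood identity changed little. LIN28B, which holds progenitors in the fetal state, was not called (39.3 and 42.2 CPM), HMGA2 was not called, and HMGA1 rose from 757 to 1365 CPM. Of 11 such genes 4 rose and 5 fell, with none past 2-fold. Among pluripotency genes DNMT3B, a DNA methyltransferase, was at 126, 128 and 126 CPM against 53.9, 53.7 and 50.6 CPM and LIN28A fell from 33.0 to 19.4 CPM. GDF3, a TGF-beta family ligand, had 352 counts with GATA2 overexpression and 0 in control, at least 161-fold higher. DNMT3A rose from 45.9 to 107 CPM as well, while TET2 and TET3, which oxidise methylated DNA, fell from 74.8 to 52.7 CPM and from 13.6 to 6.37 CPM. Of 33 genes of Polycomb, DNA methylation and TET enzymes 13 rose and 13 fell.

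Genes of DNA replication and mitosis were mostly higher. Of 40 DNA replication genes 37 rose and 1 fell, with a median log2 fold change of 0.56, and of 32 mitosis genes 29 rose and 2 fell, with a median of 0.70 (33 and 22 rose, and 3 and 4 fell, with library size only). UBE2C, which drives exit from mitosis, was at 875, 862 and 870 CPM against 260, 269 and 263 CPM (log2 fold change 1.72). PCNA, the replication clamp, rose from 147 to 327 CPM, and the replication histone HIST1H4C was at 2194, 2129 and 2196 CPM against 611, 619 and 610 CPM (log2 fold change 1.82). MKI67, the common proliferation marker, fell, with 98.8, 96.5 and 96.5 CPM against 126, 123 and 121 CPM (log2 fold change -0.35, SE 0.03, adjusted p = 2.19e-09), as did ANLN. CDK inhibitors and cyclins were mixed, with 12 of 24 higher, 9 lower and a median of 0.20. CDK4 rose from 152 to 343 CPM and CCND3 from 234 to 385 CPM, while the cyclin genes CCND1 and CCND2 fell, CCND1 from 30.8 to 15.4 CPM. The inhibitor CDKN1A fell, with 129, 128 and 130 CPM against 433, 431 and 434 CPM, whereas CDKN2A, CDKN1B, CDKN2C and CDKN2D rose, CDKN2A from 2.14 to 5.15 CPM.

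Of 22 nucleotide synthesis genes 21 rose and 0 fell, and DUT, which clears dUTP, was at 388, 406 and 393 CPM against 112, 114 and 110 CPM (log2 fold change 1.82). Of 60 mitochondrial ribosomal protein genes 58 rose and 2 fell (median 0.81), and of 36 proteasome subunits 31 rose and 0 fell (median 0.68). PSMB8, PSMB9 and PSMB10, the inducible subunits of the immunoproteasome, were among the 5 not called. Of 36 ribosome biogenesis genes 26 rose and 5 fell. With library size only 17 nucleotide synthesis, 54 mitochondrial ribosomal protein, 27 proteasome and 22 ribosome biogenesis genes rose. In the same order 2, 2, 4 and 9 fell. NHP2 and NOP16 rose from 52.7 to 130 CPM and from 65.3 to 138 CPM, and RRP12, an export factor of ribosomal subunits, was at 43.5, 40.9 and 44.9 CPM against 164, 168 and 172 CPM.

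Amino acid supply went the other way. Of 16 genes for amino acid synthesis and transport and for the ATF4 stress pathway 15 fell and 1 rose. SLC7A5, the large neutral amino acid transporter, was at 26.6, 29.1 and 27.8 CPM against 163, 166 and 164 CPM (log2 fold change -2.56), ASNS, asparagine synthetase, fell from 66.1 to 11.6 CPM, PSAT1 from 161 to 36.1 CPM and TRIB3 from 88.8 to 23.6 CPM. ATF4, the factor that controls many of these genes, was the 1 that rose, from 903 to 959 CPM (log2 fold change 0.09, within the shift of the scaling). Cytosolic tRNA synthetases divided into 8 that rose and 11 that fell. WARS, AARS, CARS and MARS fell, WARS with 66.6, 66.9 and 68.3 CPM against 223, 224 and 226 CPM. FARSA, FARSB, KARS and DARS rose, FARSA with 256, 269 and 266 CPM against 97.6, 97.6 and 101 CPM. VARS was not called.

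The 10 called genes that gained the most CPM were EEF1A1, RPS2, GAPDH, LDHB, RPS3, HBD, TPI1, RPL15, HIST1H4C and RPL3. LDHB, the heart-type lactate dehydrogenase subunit, was at 3387, 3397 and 3388 CPM against 1497, 1497 and 1507 CPM (log2 fold change 1.18). The largest losses in CPM were of MT-RNR2, FTL, MALAT1, MT-ND4, TMSB4X, PSAP, CTSB, SAT1, CSF1R and MT-ND5. Mitochondrially encoded transcripts were split with TMM factors, with 4 of 15 higher and 7 lower and none past 2-fold. With library size only 0 were higher and 13 lower. Their sum was 46408 to 52209 CPM against 56316 to 56890 CPM. The nuclear RNAs MALAT1 and NEAT1 fell, with MALAT1 at 3733, 3829 and 3774 CPM against 6801, 6618 and 6438 CPM and NEAT1 at 56.5, 48.1 and 48.5 CPM against 383, 381 and 375 CPM, while host genes of small nucleolar RNAs such as GAS5 and ZFAS1 rose, GAS5 from 151 to 255 CPM. In all 12 of 17 genes of the list of nuclear-retained and long non-coding RNAs rose and 4 fell, with a median of 0.72.

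The direction of calls moved with gene length. Among genes at or above 5 CPM with an exonic length, split by length into 5 bins of 2105 genes, the median log2 fold change was 0.57 in the bin of shortest genes, 0.33, 0.15 and -0.01 in the next ones and -0.23 in the longest. Of the shortest genes 71.8% were called higher and 19.2% lower, and of the longest 30.6% were higher and 54.8% lower. With a smooth trend on length removed, the median of mitochondrial ribosomal protein genes went from 0.81 to 0.64, that of ribosome biogenesis genes from 0.45 to 0.32, that of mitosis genes from 0.70 to 0.62 and that of matrix genes from -1.64 to -1.66. This trend stands beside the rises of mitochondrial ribosomal protein and other growth genes, and its part in the call of any single gene was not tested. By chromosome, the medians of genes at or above 5 CPM ran from -0.05 on chromosome 21 to 0.23 on chromosome 19, against 0.17 over all 10497 genes. They ran from -0.30 to -0.02 on the same chromosomes with library size only, and over all tested genes from -0.28 on chromosome 21 to 0.05 on chromosome 5.

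**Figure D5:**
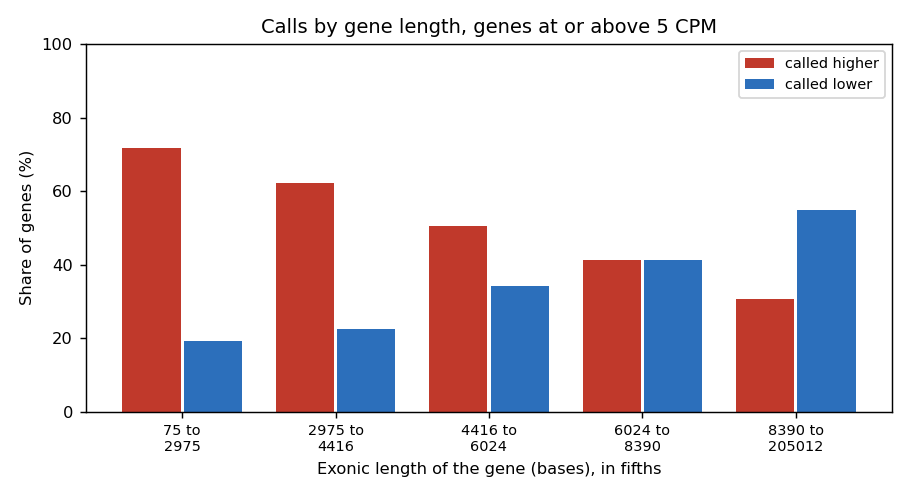
Share of genes called higher (red) and lower (blue) in 5 bins of exonic length in bases, 2105 genes at or above 5 CPM in each. The share called higher goes from 71.8% in the shortest to 30.6% in the longest bin, and the share called lower from 19.2% to 54.8%.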

How the data were processed

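RNA of H1-derived CD90+ cells was sequenced in 3 control and 3 GATA2 overexpression libraries, with 3 CD38+ control libraries beside them. The authors deposited raw read counts per gene. HISAT2, featureCounts and hg38 are named in the submitters' processing notes. The sources used here give neither their versions nor the annotation nor the strand setting of the counting, so overlapping and antisense genes are uncertain. Long and short genes enter such counts unequally, and reads of near-identical copies may be split or dropped.

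Counts were fitted with edgeR 4.0.16 in R 4.3.3 (quasi-likelihood test, TMM factors, all 9 libraries in a group-mean model, filterByExpr with a minimum count of 10 and total of 15), with Benjamini-Hochberg adjustment over 16232 genes. GATA2 overexpression minus CD90+ control was the contrast. Calls needed an adjusted p under 0.05. Libraries held 37500192 to 47261093 counts in CD90+ cells. Replicates of a group differed by more than sampling noise. On simulated data for this comparison, with 200 of 16232 genes changed, 76.5% of 2-fold and 43.5% of 1.25-fold changes were recovered and 7.11% of calls were false. These shares hold for that setting only, while 77.6% of genes were called in the data. Counting intervals are exact Clopper-Pearson at 95% and, like the floor of 3 counts, cover counting error only.

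Named genes were 8 markers, the 10 largest rises and falls and the 10 largest gains and losses in CPM, the GATA list, and in each list, at 5 CPM or more, up to 4 members with the lowest adjusted p in the list's main direction and 2 in the other. Other genes were named after their values were seen. The members and the 44 lists were chosen with earlier results of these data known, and 1105 of 1125 list symbols matched. Promoters are from RefSeq (GRCh38.p14). DESeq2 1.42.0, limma 3.58.1 (voom), other scalings and filters, a replicate block and leaving out each library were the alternatives. The removal of a length trend and the C1q list sum without SCARB1 were chosen after seeing the data.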

Additional observations from a re-analysis of the deposited data

How the results depend on the processing

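The count of genes called at least 2-fold higher, 1296, became 857 with a filter at 1 CPM and 652 with library size only. A test against a 1.5-fold change called 2647 genes higher, 1225 of them at least 2-fold higher. Leaving out 1 library gave 1307 to 1338 such genes, 5974 to 6081 called higher and 6158 to 6380 called lower. Calls split into 4469 higher and 8104 lower with library size only and 5388 and 7190 with upper-quartile factors, against 6176 and 6426. Library size only turned the log2 fold changes of KIT (-0.0732), PLTP (-0.0767), LRP5 (-0.0128), FZD6 (-0.00572) and MT-CO1 (-0.0243). GATA6 and ZFPM1, neither of them called, changed sign when a library was left out: GATA6 (0.0120 without overexpression replicate 2 and 0.0773 without control replicate 2, within -0.203 to 0.0773) and ZFPM1 (0.00585 without control replicate 2 and 0.0705 without control replicate 3, within -0.184 to 0.0705). The cause was not tested. Replicate numbers did not pair the samples, with correlations of same-numbered libraries of -0.03, 0.00079 and 0.00037, and with a replicate block 6075 genes were called higher and 6309 lower. Depth limits low genes: below 5 CPM 33.8% of simulated 2-fold changes were recovered.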
